A study of Mus musculus with 10 samples.

Results

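Metabotropic glutamate receptors are the G protein-coupled receptors for the transmitter glutamate. The genes described are Grm2, Grm3, Grm4, Grm5, Grm7 and Grm8, taken by their mouse symbols, which makes 6 of the 55471 gene identifiers measured. Whole-brain RNA came from 10 wild-type Swiss Webster pups labelled as neonatal day 5. Every pup had hypoxia-ischemia, an injury by loss of oxygen and blood supply. In 5 pups the injury was followed by allopregnanolone, a progesterone metabolite that enhances GABA-A receptor currents, and in 5 pups it was left untreated. Each pup gave 1 library, numbered 6 to 10 in the allopregnanolone group and 1 to 5 in the untreated group. No uninjured brain and no vehicle group is among these samples, and the sources used here give no dose, litter, sex or time between injury and collection.

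The family is divided into groups by sequence and coupling. Group I receptors, here Grm5, act mainly through Gq proteins and phospholipase C to release calcium from stores, and sit mostly on the postsynaptic side, where they are tied to Homer and Shank scaffolds. Group II (Grm2 and Grm3) and group III (Grm4, Grm7 and Grm8) act through Gi/o proteins, which lower cyclic AMP and dampen transmitter release. In the young brain Grm5 is also made by progenitors and immature astrocytes, and Grm3 is known from astrocytes as well as neurons.

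A short coding site sets Grm5 apart from the group II and III genes, because the tail of its receptor carries the Homer-binding motif of proline, proline, any residue, any residue, phenylalanine. All 6 coding sequences of GENCODE M21 were searched in frame for codons of that motif, and 3 of them held 1 match each. They are shown because the Homer genes are among the partners measured below. Capitals mark the 15 bases of the match, and 15 bases stand on either side.
Grm5: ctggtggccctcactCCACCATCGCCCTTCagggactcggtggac
Grm2: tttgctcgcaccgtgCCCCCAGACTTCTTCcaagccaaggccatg
Grm7: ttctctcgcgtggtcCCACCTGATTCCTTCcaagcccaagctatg
In Grm5 the match covers codons 1156 to 1160 of 1203, near the end of the reading frame and so in the tail. In Grm2 it covers codons 186 to 190 of 872 and in Grm7 codons 200 to 204 of 922, both in the first part of the frame, which encodes the outside of the receptor. Of 21526 protein-coding genes searched, 6.95% had at least 1 match, so a match alone marks no Homer site.

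Expected counts summed to between 18656836 and 34270723 per library, and allopregnanolone library 6 was the deepest. Genes of both neurons and glia were detected. Snap25, a synaptic vesicle fusion protein, was at 907 to 1358 CPM (counts scaled to library size, with TMM normalization). The astrocyte water channel Aqp4 was at 171 to 342 CPM. These genes do not tell brain regions apart. Midbrain and dopamine neuron markers summed to 14.9 to 101 CPM with allopregnanolone and 9.33 to 18.6 CPM untreated. Whether all libraries held the same regions was not tested. All 6 receptor genes passed the count minimum, with 215 to 5199 counts in a library. The quasi-likelihood test in edgeR, at an adjusted p under 0.05, called 11.3% of 17101 genes, 6.61% higher and 4.65% lower with allopregnanolone. With library totals in place of TMM, 783 genes were higher and 1451 lower, against 1131 higher and 795 lower with TMM, and the median log2 fold change of all genes was -0.06 in place of -0.0046. Against that background 1 of the 6 receptor genes passed, Grm5, and it was lower. At an unadjusted p under 0.05 stood 3 of the 6, Grm2, Grm3 and Grm5, against 27.5% of all genes.

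Grm5 (ENSMUSG00000049583, chromosome 7, 87584168 to 88134907 on the plus strand of GRCm38) encodes the main group I receptor of the forebrain. Its level was 138, 154, 169.8, 174 and 171 CPM in allopregnanolone libraries 6 to 10, against 203, 189, 206, 209 and 192 CPM in untreated libraries 1 to 5. Every allopregnanolone library lay below every untreated library, and library 6 was the lowest of all. Among all genes tested 9.64% had no overlap between the groups, and 4.2% had none with the allopregnanolone libraries lower. The means were 161 ± 15.03 CPM with allopregnanolone and 199.7 ± 8.85 CPM untreated (SD, n = 5 each), 1.24-fold lower. The log2 fold change was -0.31 (SE 0.06, 95% interval -0.45 to -0.17), and edgeR gave an adjusted p = 0.00923 over all genes. An exact two-sided permutation test over all assignments of the libraries to groups gave p = 0.00794, the smallest it can give. Without library 6 the log2 fold change was -0.26 (adjusted p = 0.00992, edgeR). Without untreated libraries 1 to 3, whose names carry another prefix than all other libraries, it was -0.32 with an adjusted p = 0.141 (edgeR), and 105 genes in all passed. In whole-brain RNA, fewer cells that make a transcript and less transcript per cell cannot be told apart.

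**Figure D1:**
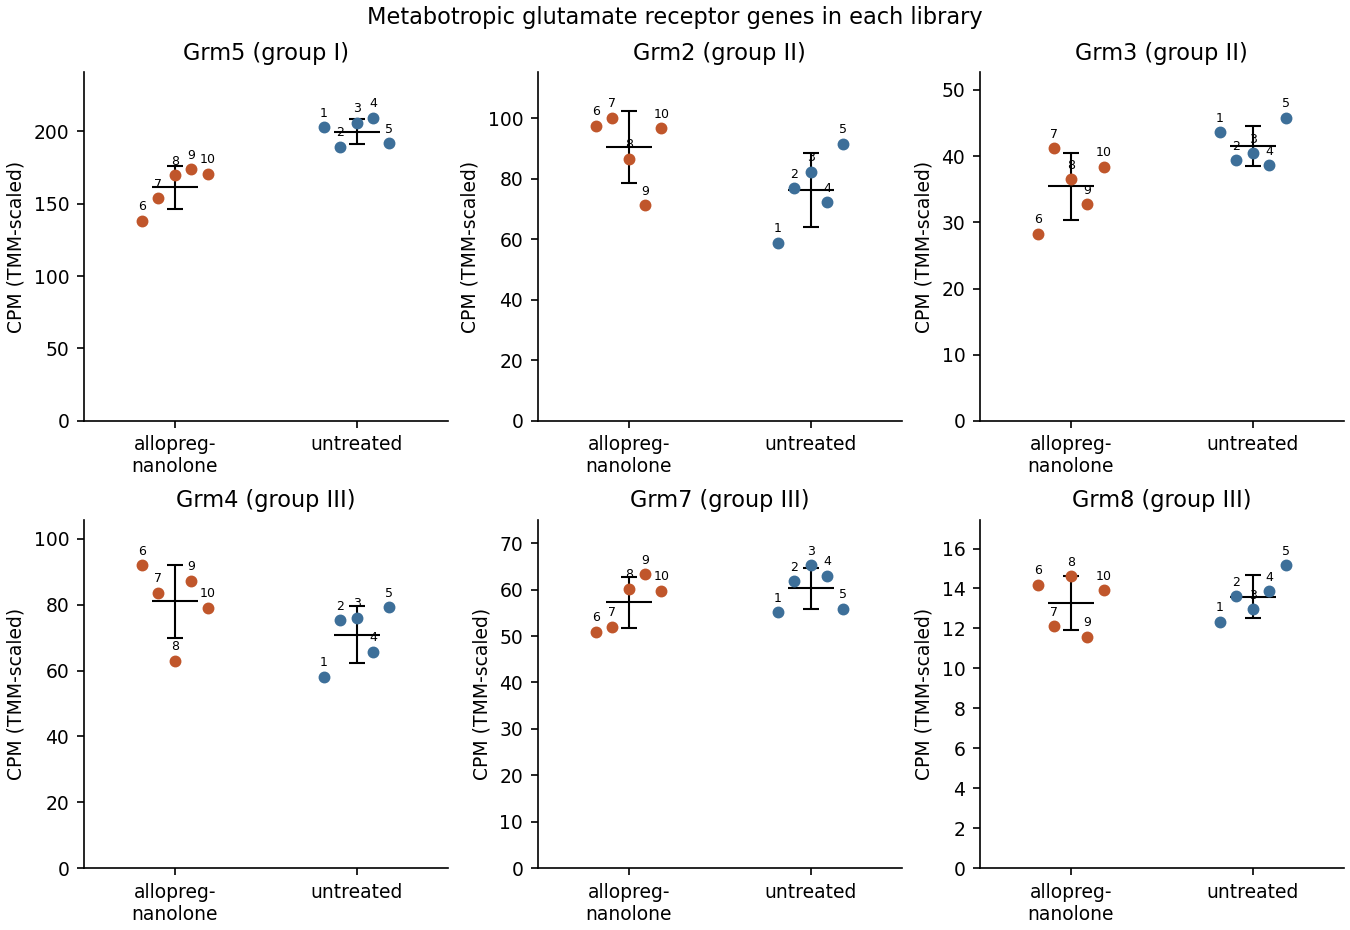
Level of each receptor gene in CPM (TMM-scaled, linear axis from 0) in the 5 allopregnanolone libraries (orange, left) and the 5 untreated libraries (blue, right). Points are libraries with their numbers and bars give the mean and SD. The groups are apart for Grm5, at 138 to 174 against 189 to 209 CPM, and overlap for the other 5 genes.

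The group II genes lay on opposite sides of 0 and neither passed the test. Grm2 (ENSMUSG00000023192, chromosome 9, 106643095 to 106656082, minus strand) encodes a receptor of axon terminals that limits glutamate release. It was at 97.5, 100.1, 86.6, 71.2 and 96.7 CPM in allopregnanolone libraries 6 to 10, against 58.9, 76.9, 82.2, 72.1 and 91.5 CPM in untreated libraries 1 to 5. Libraries 6, 7 and 10 lay above every untreated library, while library 9 was lower than 4 of the 5 untreated ones. The log2 fold change was 0.25 (SE 0.11, 95% interval 0.01 to 0.48, adjusted p = 0.172, edgeR; exact permutation p = 0.119). Without untreated library 1, the lowest of all, it was 0.16, and without all 3 libraries of the other name prefix 0.14. The annotation places the antisense gene Gm28111 over 9.60% of the exon bases of Grm2, and that gene was listed at 0 in every library.

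Grm3 (ENSMUSG00000003974, chromosome 5, 9485541 to 9725170, minus strand) encodes the group II receptor that astrocytes share with neurons and that is activated by the peptide NAAG. Its level was 28.3, 41.2, 36.5, 32.8 and 38.4 CPM in allopregnanolone libraries 6 to 10, against 43.6, 39.4, 40.4, 38.6 and 45.8 CPM in untreated libraries 1 to 5. All allopregnanolone libraries other than library 7 were below every untreated library, so the groups overlap through that library. The means were 35.4 ± 5.03 CPM with allopregnanolone and 41.6 ± 3.04 CPM untreated (SD, n = 5 each), and the log2 fold change was -0.23 (SE 0.09, 95% interval -0.43 to -0.04). The adjusted p = 0.109 in edgeR's test misses the threshold, the unadjusted p was 0.0213 and the exact permutation p was 0.0476. With library totals in place of TMM Grm3 passed as lower, at a log2 fold change of -0.29 and an adjusted p = 0.0395 (edgeR). Whether Grm2 and Grm3 differ in their response was not tested.

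None of the group III genes passed. Grm4 (ENSMUSG00000063239, chromosome 17, 27422387 to 27521403, minus strand), known from the axons of cerebellar granule cells, was at 92.1, 83.7, 63.0, 87.3 and 79.1 CPM in allopregnanolone libraries 6 to 10, against 58.1, 75.3, 76.1, 65.7 and 79.3 CPM in untreated libraries 1 to 5. Libraries 6, 7 and 9 lay above every untreated library, and library 8 was above untreated library 1 alone. Its log2 fold change was 0.19 (SE 0.10, 95% interval -0.02 to 0.41, adjusted p = 0.237, edgeR; exact permutation p = 0.167), and 0.12 without untreated library 1. Cerebellar granule cell markers, 5 of 7 of them tested and 1 called (Barhl1, higher), summed to 94.1 to 211 CPM with allopregnanolone and 108 to 193 CPM untreated. The sum was 211, 146, 94.1, 139 and 159 CPM in allopregnanolone libraries 6 to 10, and Zic1, Zic2 and Neurod1 made up nearly all of it. Its order matched that of Grm4 at the top and bottom (libraries 6 and 8) but not between them, since library 9 had more Grm4 than libraries 7 and 10 and a lower sum. The granule cell genes Gabra6 and Atoh1 were near 0, at means of 0.458 and 0.00959 CPM with allopregnanolone and 0.102 and 0.0234 CPM untreated. Thalamus and hypothalamus markers, 7 tested with 1 higher, summed to 258, 159, 91.7, 180 and 175 CPM in allopregnanolone libraries 6 to 10. In untreated libraries 1 to 5 they summed to 86.9, 180.4, 189, 115.6 and 179.6 CPM. That sum and Grm4 were both highest in library 6 and lowest in library 8, while libraries 7 and 10 changed places. Among untreated libraries both were lowest in library 1. The part of any of these cells in the Grm4 values was not tested.

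Grm7 (ENSMUSG00000056755, chromosome 6, 110645581 to 111567230, plus strand) encodes the receptor of the presynaptic active zone, which responds only to high glutamate. It stood at 50.9, 52.0, 60.2, 63.3 and 59.8 CPM in allopregnanolone libraries 6 to 10, against 55.2, 61.9, 65.3, 63.0 and 55.9 CPM in untreated libraries 1 to 5. The ranges overlap, with libraries 6 and 7 below every untreated library. Its log2 fold change was -0.07 (SE 0.07, 95% interval -0.23 to 0.08, adjusted p = 0.541, edgeR). The antisense gene Gm20387 covers 2.21% of its exon bases and was at 2.48 to 3.66 CPM with allopregnanolone and 2.46 to 4.41 CPM untreated. The sources used here do not say whether counting used the strand, so reads of the shared bases cannot be told apart.

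Grm8 (ENSMUSG00000024211, chromosome 6, 27275119 to 28135178, minus strand), another presynaptic receptor, was the lowest of the 6 in CPM. It was at 14.2, 12.1, 14.6, 11.6 and 13.9 CPM in allopregnanolone libraries 6 to 10, against 12.3, 13.6, 13.0, 13.9 and 15.2 CPM in untreated libraries 1 to 5. The ranges overlap, and the log2 fold change was -0.03 (SE 0.09, 95% interval -0.22 to 0.16, adjusted p = 0.859, edgeR). For Grm7 and Grm8 the intervals leave room for a fall to 0.854-fold and 0.856-fold and for a rise to 1.06-fold and 1.12-fold. These bounds do not show that the genes were alike in both groups.

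**Figure D2:**
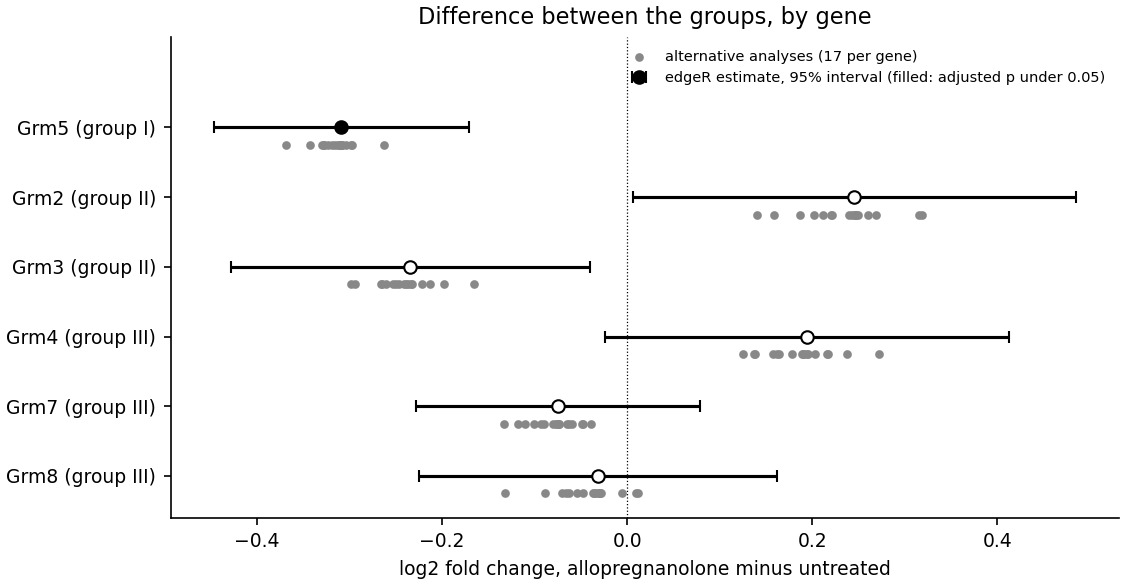
Log2 fold change of each receptor gene, allopregnanolone minus untreated, with its 95% interval from edgeR (black; filled where the adjusted p is under 0.05) and the values of 17 alternative analyses per gene (grey). Grm5 is the filled point, at -0.31, and its alternatives run between -0.37 and -0.26.

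Levels can be compared between genes only per length, here as CPM per kb of merged annotated exons, a length that includes exons of minor transcripts. With allopregnanolone the order was Grm2 at 18.5 ± 2.43, Grm5 at 15.7 ± 1.47, Grm4 at 13.6 ± 1.86, Grm3 at 11.6 ± 1.65, Grm7 at 9.72 ± 0.924 and Grm8 at 1.34 ± 0.136 CPM per kb (SD, n = 5). In untreated libraries it was Grm5 at 19.5 ± 0.864, Grm2 at 15.6 ± 2.48, Grm3 at 13.6 ± 0.998, Grm4 at 11.9 ± 1.46, Grm7 at 10.2 ± 0.761 and Grm8 at 1.37 ± 0.108 CPM per kb (SD, n = 5). In both groups neighbours in the order overlapped over the libraries, except Grm8, which lay below Grm7 in every library. Grm5 was above Grm2 in all 5 untreated libraries, and Grm2 above Grm5 in 4 of 5 allopregnanolone libraries.

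The summed level of the 6 genes was 70.5 ± 2.72 CPM per kb with allopregnanolone and 72.2 ± 4.03 CPM per kb untreated (SD, n = 5 each), with overlapping ranges of 68.2 to 73.8 and 66.5 to 76.7. Within this sum Grm5 took 19.8% to 24.7% in allopregnanolone libraries, against 24.4% to 29.7% in untreated libraries, overlapping through library 9 and untreated library 5. Grm2 took 21.2% to 29.2% with allopregnanolone and 18.1% to 24.4% untreated. Group II as a whole held 42.7% ± 3.58 with allopregnanolone and 40.4% ± 2.04 untreated, and group III 35.0% ± 2.78 with allopregnanolone and 32.5% ± 1.41 untreated (SD, n = 5 each). The shares of one sum are tied to each other, and they are given as a description with no test.

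**Figure D3:**
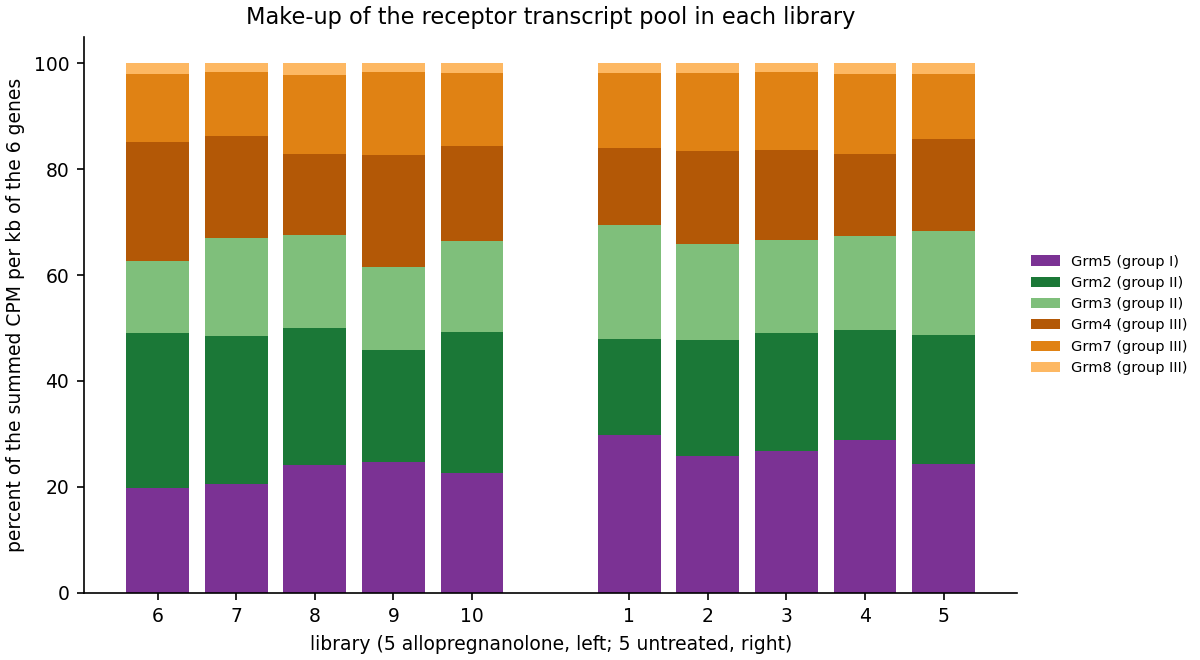
Share of each receptor gene in the summed CPM per kb of the 6 genes, in percent, for 5 allopregnanolone libraries (left) and 5 untreated libraries (right). The lowest segment, Grm5, spans 19.8% to 24.7% on the left and 24.4% to 29.7% on the right, and Grm8 is a thin segment in every library.

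The genes whose pattern over the 10 libraries was most like each receptor were found by the root mean square difference of centred log2(CPM + 1) among 13509 genes, as a description. For Grm5 these were Nsmce1, a subunit of a DNA repair complex (difference 0.0485), the tyrosine phosphatase Ptprr (0.050) and the small GTPase Rala (0.0526), where Grm5 itself deviates from its mean by 0.183. Ptprr stood at 22.5 ± 1.77 CPM with allopregnanolone and 28.6 ± 1.09 CPM untreated, and Rala at 63.7 ± 4.15 CPM with allopregnanolone and 79.8 ± 6.22 CPM untreated (SD, n = 5 each). For Grm3 they were Rfesd, the kainate receptor auxiliary subunit Neto1 and Osbpl8, at differences of 0.0807 to 0.0835. For Grm2 they were the citrate transporter Slc13a5, Gal3st4 and Car10, at 0.0853 to 0.101. For Grm4 the closest was Plcb4, a phospholipase C of the Gq pathway, at 0.0613, followed by the G protein regulator Rgs3 and Rbms3. Grm7 and Grm8 deviated less from their own means, by 0.116 and 0.111, and their closest genes were Slc35a3, Cmas and Zfp180, and Rabgef1, Fip1l1 and Zbtb21.

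The pathway around the receptors was read from 7 lists of 88 genes in all, of which 87 were tested. Of these 9 were higher and 6 lower past the threshold, 17.2% against 11.3% of all genes tested, with a median log2 fold change of 0.04 against -0.0046 over all genes tested. The lists were chosen with earlier results of these data known, so these shares are a description only. Among 21 genes of Gq signalling and the group I scaffold, 2 rose, 0 fell and 19 did not pass (median log2 fold change 0.07), a share called below the 11.3% of all genes tested. Ncdn, which encodes norbin, a partner that brings mGlu5 to the surface, averaged 1395 ± 37.5 CPM with allopregnanolone and 1130.5 ± 95.4 CPM untreated (SD, n = 5 each), with no overlap and a log2 fold change of 0.30 (SE 0.06, adjusted p = 0.00758, edgeR). Grasp, which encodes the scaffold tamalin, averaged 33.8 ± 2.95 CPM with allopregnanolone and 26.6 ± 2.75 CPM untreated (SD, n = 5 each), 1.27-fold higher with an adjusted p = 0.0172 (edgeR), and its groups overlap. The Homer genes, whose products bind the site shown for Grm5, did not pass. Homer1 had a log2 fold change of -0.10 (SE 0.12, 95% interval -0.37 to 0.16), Homer2 -0.04 (SE 0.06, 95% interval -0.17 to 0.08) and Homer3 0.24 (SE 0.12, 95% interval -0.01 to 0.48). Shank1, which links Homer to the postsynaptic density, had 0.16 (SE 0.08) and did not pass either.

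Of 12 genes of translation and synaptic depression downstream of group I receptors, 1 fell and 11 did not pass (median log2 fold change -0.01). The one that fell was Map1b, a microtubule protein of growing axons whose translation group I receptors raise, at 1616 ± 38.0 CPM with allopregnanolone and 1899 ± 149.8 CPM untreated (SD, n = 5 each, adjusted p = 0.0223, edgeR), a call lost in 4 of 17 alternative analyses. Of the 6 genes of receptor desensitisation, which encode kinases and arrestins, none passed in edgeR. Among the class C relatives, the GABA-B receptor subunits Gabbr1 and Gabbr2 did not pass, at log2 fold changes of 0.10 (SE 0.05) and 0.14 (SE 0.07).

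Gi/o signalling and the partners of group II and III receptors went both ways, with 2 of 23 genes higher, 3 lower and 18 not passing (median log2 fold change -0.01). Adcy9, an adenylyl cyclase, rose 1.30-fold, at 30.0 ± 1.92 CPM with allopregnanolone and 23.0 ± 2.12 CPM untreated (SD, n = 5 each, adjusted p = 0.00651, edgeR). Adcy1, the most abundant cyclase of the list in CPM, averaged 634 ± 97.3 CPM with allopregnanolone and 778 ± 39.4 CPM untreated (SD, n = 5 each). Its log2 fold change of -0.29 (SE 0.09) did not pass (adjusted p = 0.0545, edgeR). Adcy2, Adcy3, Adcy5 and Adcy8 did not pass either, at log2 fold changes of 0.09, -0.01, -0.10 and -0.21. Elfn2, a postsynaptic adhesion protein that binds group III receptors across the synapse, rose 1.21-fold, at 257 ± 11.4 CPM with allopregnanolone and 212 ± 14.5 CPM untreated (SD, n = 5 each, adjusted p = 0.00777, edgeR). Grip1, a PDZ scaffold best known for holding AMPA receptors, was 1.29-fold lower, at 36.4 ± 2.98 CPM with allopregnanolone and 47.1 ± 2.87 CPM untreated (SD, n = 5 each, adjusted p = 0.00375, edgeR). The G protein subunits Gnai1 and Gnai3 fell by smaller amounts, 1.14-fold and 1.20-fold lower, with adjusted p = 0.0464 and 0.0389 (edgeR). Their calls were lost in 10 and 8 of 17 alternative analyses. Gnao1, the most abundant G protein gene of the list in CPM, had a log2 fold change of -0.04 (SE 0.06), and the PDZ partner of mGlu7, Pick1, had 0.02 (SE 0.05).

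Of the genes that supply and clear glutamate, 5 of 17 were higher, 1 was lower and 11 did not pass (median log2 fold change 0.15). The sum of the astrocyte markers was higher along with them, with 4 of 7 past the threshold. It did not overlap between the groups, at 3173 to 3715 CPM with allopregnanolone and 2469 to 2880.2 CPM untreated. The lists share Slc1a2 and Slc1a3, and Slc1a2 makes up most of that sum, while Gjb6, Fgfr3 and Aldoc are the other 3 that passed. Aqp4 went the other way without passing, at 194 ± 26.3 CPM with allopregnanolone and 245 ± 62.2 CPM untreated (SD, n = 5 each). Its log2 fold change was -0.33 (SE 0.14). Aldh1l1 and Slc1a3 did not pass either, at 0.09 (SE 0.05) and 0.14 (SE 0.06). The part of astrocytes in these values was not tested. Glul, the astrocyte enzyme that turns glutamate into glutamine, rose 1.53-fold, at 818 ± 60.6 CPM with allopregnanolone and 534 ± 22.1 CPM untreated (SD, n = 5 each, adjusted p = 0.000107, edgeR). Slc1a2, the main glutamate transporter of astrocytes, rose 1.32-fold, at 2158 ± 221 CPM with allopregnanolone and 1634 ± 135 CPM untreated (SD, n = 5 each, adjusted p = 0.00716, edgeR). The transaminases Got1 and Got2 rose 1.26-fold and 1.21-fold, and Slc3a2, the heavy chain of amino acid exchangers, rose 1.13-fold, a call lost in 5 of 17 alternative analyses. Slc7a11, the light chain that exports glutamate for cystine, fell by 0.27 on the log2 scale (SE 0.08, adjusted p = 0.0481, edgeR), a call lost in 10 of 17 alternative analyses. In the NAAG list 1 of 5 genes passed and it was lower. It was Rimklb, which encodes a NAAG synthase, at 43.1 ± 1.5 CPM with allopregnanolone and 56.1 ± 5.23 CPM untreated (SD, n = 5 each, adjusted p = 0.00325, edgeR), with no overlap. Folh1, which encodes the peptidase that breaks NAAG down, had a log2 fold change of 0.36 (SE 0.14) and did not pass (adjusted p = 0.112, edgeR).

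**Figure D4:**
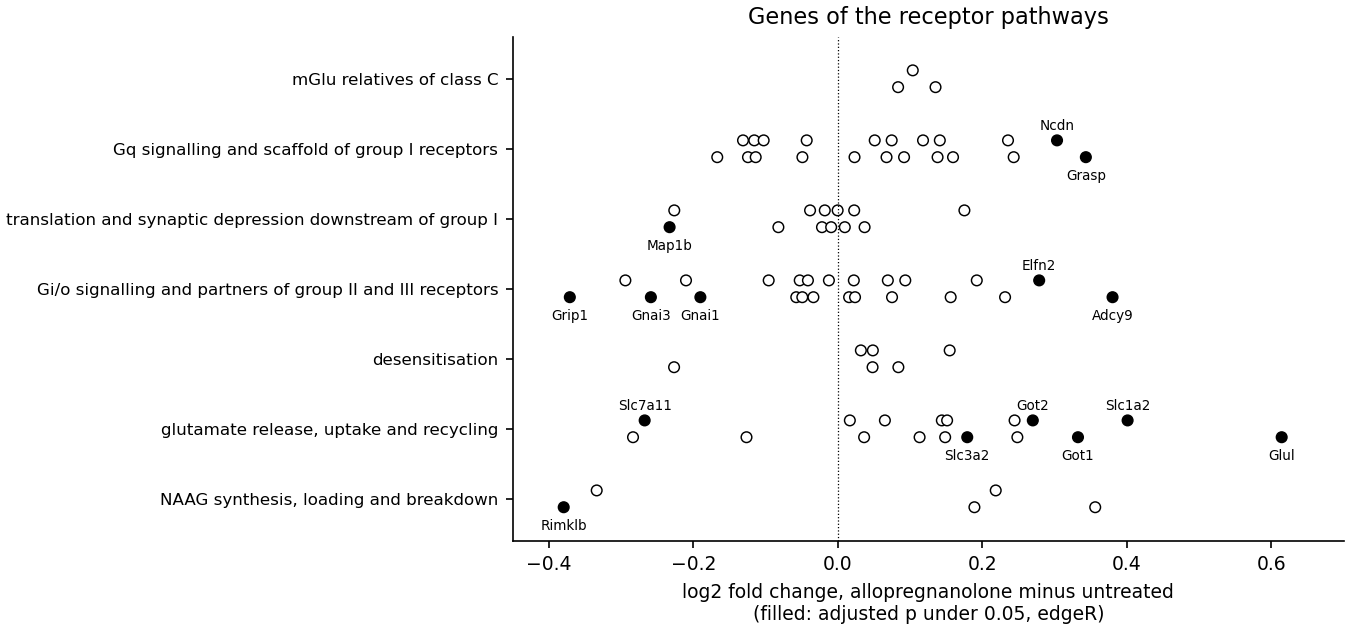
Log2 fold change, allopregnanolone minus untreated, of each tested gene in 7 pathway lists. Filled, named points passed an adjusted p of 0.05 in edgeR. The glutamate supply and clearance list has 5 filled points above 0 and 1 below, and Glul is farthest from 0.

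Of the marker lists of cell types that a whole brain holds, some differed between the groups and others did not. Immature neuron markers, 7 of 7 tested and 6 of them lower, summed to 1769 to 1835 CPM with allopregnanolone and 2187 to 2409 CPM untreated, with no overlap, as for Grm5. Stmn2 and Tubb3 made up most of that sum, at means of 789 and 708 CPM with allopregnanolone and 1005 and 853 CPM untreated. Dcx, Neurod6, Sox4 and Sox11, at lower levels, also passed as lower. Astrocyte markers, 7 tested with 4 higher and 0 lower, had sums in the opposite direction to Grm5 and Grm3, as given above. Oligodendrocyte precursor markers, 6 tested with 5 higher, summed to 867 to 1080.2 CPM with allopregnanolone and 560.2 to 833 CPM untreated. Gpr17 and Olig1 were the largest parts of that sum. Pdgfra did not pass, at 78.4 ± 8.09 CPM with allopregnanolone and 83.1 ± 3.72 CPM untreated (SD, n = 5 each), a log2 fold change of -0.08 (SE 0.07). Markers of mature oligodendrocytes, which make myelin, were all higher (7 of 7, median log2 fold change 1.23) and summed to 5250 to 7042 CPM with allopregnanolone and 1796 to 3410 CPM untreated. Endothelial markers, 6 tested with 3 higher, summed to 232 to 255 CPM with allopregnanolone and 170.2 to 188 CPM untreated. Slc2a1 was the largest part of that sum, at 92.6 ± 11.3 CPM with allopregnanolone and 49.2 ± 1.37 CPM untreated (SD, n = 5 each). Cldn5, Cdh5 and Pecam1 did not pass, at log2 fold changes of 0.02, 0.04 and 0.15. None of the oligodendrocyte precursor, oligodendrocyte and endothelial sums overlapped between the groups. General neuron markers had 2 of 7 higher and 1 lower, cortical and hippocampal excitatory neuron markers 0 of 7 passing in edgeR, and inhibitory neuron markers 1 higher and 1 lower of 7. The sums of these 3 neuron lists overlapped between the groups, at 6057 to 6637, 1571 to 2202 and 1025 to 1110 CPM with allopregnanolone and 5508 to 6211, 1529 to 1989 and 911 to 1082 CPM untreated. Striatal neuron markers, of which 0 of 6 passed in edgeR, summed to 181, 562.5, 335, 650.4 and 348 CPM in allopregnanolone libraries 6 to 10 and to 665, 366, 416, 432 and 572 CPM in untreated libraries 1 to 5. Library 6 was lowest for these markers, Grm5 and Grm3 alike. Within the allopregnanolone group library 9 was highest for both the striatal sum and Grm5. Library 7 had a higher striatal sum and less Grm5 than libraries 8 and 10. Among untreated libraries, library 2 was lowest for both, while the striatal sum was highest in library 1 and Grm5 in library 4. Midbrain and dopamine neuron markers, 7 tested with 6 higher, summed to 14.9 to 101 CPM with allopregnanolone and 9.33 to 18.6 CPM untreated. That sum was 101, 77.6, 14.9, 57.2 and 18.4 CPM in allopregnanolone libraries 6 to 10. The part of these cell types in the receptor values was not tested.

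**Figure D5:**
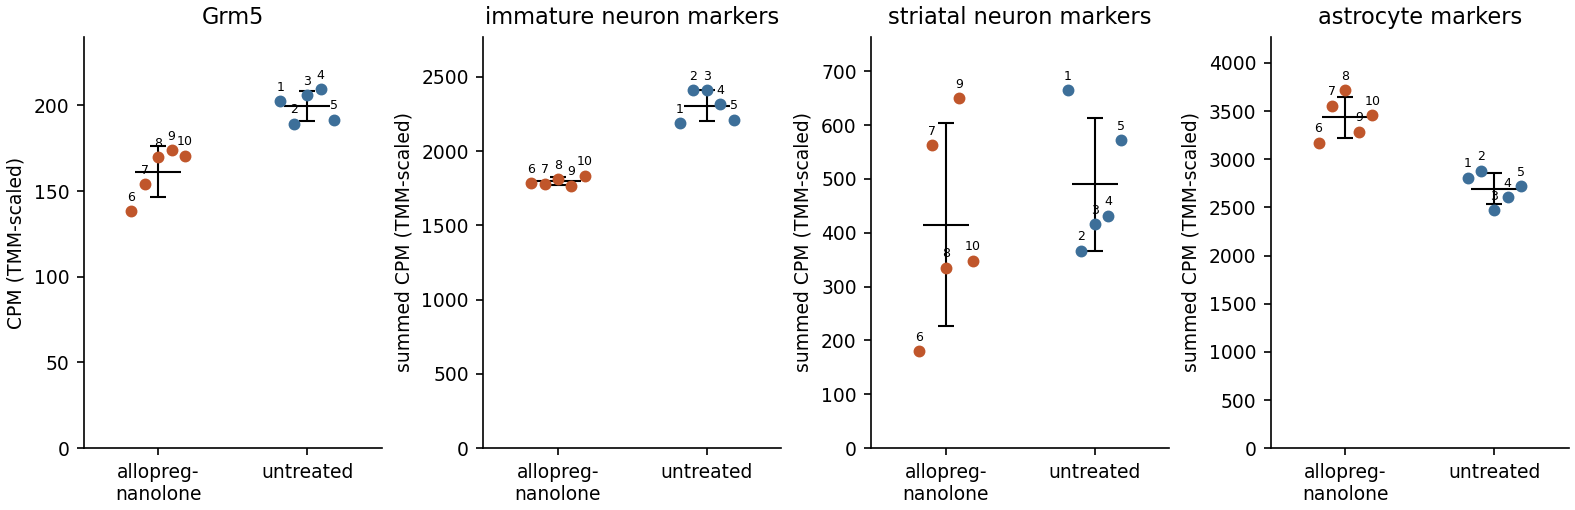
Grm5 in CPM and the summed CPM of the immature neuron, striatal neuron and astrocyte markers (linear axes from 0) in the 5 allopregnanolone libraries (orange, left) and 5 untreated libraries (blue, right), with library numbers, mean and SD. Grm5 and the immature neuron sum are lower without overlap with allopregnanolone, the astrocyte sum is higher without overlap, and the striatal sums overlap at 181 to 650.4 against 366 to 665 CPM.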

How the data were processed

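The authors deposited 1 gene table of expected counts for 55471 Ensembl identifiers in 10 libraries. Its name calls the values normalized, but 86.8% to 87.6% of those above 0 were whole numbers and library totals differed, so they were rounded and analysed as counts. The submitters' processing notes name Partek and mm10, and the sources used here name no aligner, annotation or strand setting. Names, exons and coding sequences came from GENCODE M21 (GRCm38, the same assembly as mm10), which holds 55230 of the identifiers.

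Genes with 10 or more counts in at least 5 libraries were kept (17101), scaled by TMM (factors 0.953 to 1.04) and compared in R 4.3.3 by the two-sided quasi-likelihood test (edgeR 4.0.16), without covariates, with Benjamini-Hochberg adjustment over all genes kept and a threshold of 0.05. Standard errors are |log2 fold change| / √F, and intervals use 95%. The labels number the pups separately, so pups are the replicates. The script was tested on simulated data. It recovered 24% of genes changed 1.25-fold, 64% of those changed 1.5-fold and 84% of those changed 2-fold. Of its calls 7.9% fell on unchanged genes. Small differences can therefore be missed at this threshold. Permutation tests used log2(CPM + 1). All 60 deposited values of the 6 genes were whole numbers, and no window of 50 bases was shared between the 6. With transcripts of other genes Grm5 shared 12 of 10291 windows (0.117%, found in 256 genes) and Grm8 47 of 9988 (0.471%, in 1 gene), and how such reads were assigned is not stated.

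The genes and lists were chosen with earlier results of these data known. Genes named from a list are those past the threshold, up to 6 by smallest p, and abundant ones that did not pass. Homer1, Homer2, Homer3 and Pick1, and the markers Barhl1, Gabra6, Atoh1, Zic1, Zic2, Neurod1, Gjb6, Fgfr3 and Aldoc, were added for their role after their values were seen. Adcy2, Adcy3, Adcy5 and Adcy8, and the thalamus and hypothalamus sum, were also added after their values were seen. So were the markers Aldh1l1, Pdgfra, Gpr17, Olig1, Slc2a1, Cldn5, Cdh5, Pecam1, Stmn2, Tubb3, Dcx, Neurod6, Sox4 and Sox11, to show what the sums rest on. Not every gene so selected is reported. The 17 alternatives were median-of-ratios scaling, library totals alone, a minimum of 100 counts, no minimum, DESeq2 1.42.0, limma-trend (limma 3.58.1, prior count 1), each library left out and removal of the 3 libraries with another name prefix.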

Additional observations from a re-analysis of the deposited data

Results flagged for a closer look

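In 42 named genes, 84 groups of 5 libraries were searched for a library far from the other 4, and 3 were found, while chance flags about 1 in 20. None was in a receptor gene. The calcium channel gene Cacna1a was at 385 CPM in allopregnanolone library 7, against 313 to 332 CPM in the others of its group. Eef2, an elongation factor, was at 807 CPM in untreated library 4, against 906 to 925 CPM in the others. The kinase gene Mapk3 was at 253 CPM in allopregnanolone library 8, against 216 to 224 CPM in the others. None of these genes passed the test between the groups.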

How the results depend on the processing

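Of 102 recomputed differences of the 6 receptor genes, 98 kept their direction and their side of the threshold. With library totals alone 2 receptors passed, both lower, since Grm3 passed at -0.29 on the log2 scale, and 1451 genes were lower. Without the libraries of the other name prefix 0 receptors passed, with Grm5 at -0.32, and 105 genes passed, 80 higher and 25 lower, 1 of them a pathway gene (1 higher, 0 lower). That alternative leaves 2 untreated libraries. With each library left out in turn Grm5 passed in all 10 fits, with log2 fold changes of -0.34 to -0.26 and adjusted p of 0.00930 to 0.0266 (edgeR), and Grm8 ran between -0.0699 and 0.0114, turning above 0 without untreated library 5 or allopregnanolone library 9 (0.00959). Grm2 ran between 0.16 and 0.32, Grm3 between -0.30 and -0.17, Grm4 between 0.12 and 0.27 and Grm7 between -0.12 and -0.04, none passing in edgeR. In those fits 1084 to 2343 genes passed, 645 to 1360.0 higher and 435 to 983 lower, and the total was over 1.5 times smaller without untreated library 1, 3 or 4. Of the pathway genes 9 to 17 passed, 7 to 11 higher and 2 to 7 lower, a set of alternatives added after seeing the data. The 15 pathway genes called kept direction in all 255 recomputed values and lost the call in 47. Both other settings of the exact permutation tests left all 6 genes on the same side of 0.05. No paired analysis was possible because the groups share no replicate numbers. Grm8 had the lowest counts of the 6, 215 to 476 in a library.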
